A study of Mus musculus with 2 samples.

Results

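FoxO3 peaks over 3 very large genes, Mdn1, Usp34 and Huwe1, were described in C2C12 cells, an established mouse myoblast line that fuses into myotubes. A peak was a member when its summit lay in one of 3 windows on the mouse build mm9, which were chosen from the positions of densely grouped peaks in the same list. The windows were chromosome 4 from 32743885 to 32865054 for Mdn1, chromosome 11 from 23264317 to 23405108 for Usp34 and chromosome X from 148286905 to 148366374 for Huwe1. They held 146, 96 and 81 peaks, or 323 of the 45457 peaks in the myotube list. All 323 are used, with no filter on low values.

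Chromatin immunoprecipitation followed by sequencing (ChIP-seq) was performed once per condition with an anti-Foxo3 antibody. The myoblast library was taken at hour -24 relative to differentiation medium and the myotube library at hour 72. Myoblasts were grown with fetal bovine serum, and the differentiation medium held horse serum. The source label of both samples names myoblasts, so the grouping rests on the hour in the titles. As each group is 1 library, differences between conditions were not tested and have no replicate behind them, and binding in more cells cannot be told apart from stronger binding per cell. Peaks of 1 library are not replicates of a condition, so the intervals given cover counting error or the spread over peaks only. The gene names of the windows come from the rule. No mm9 annotation was used here, so exons, introns and start sites were not compared with the peaks, and muscle marker genes were not examined.

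FoxO3 is a forkhead transcription factor that insulin and growth factor signalling keeps out of the nucleus, and in muscle it is known for activating atrophy and autophagy genes. The 3 genes encode proteins used by most cell types. Mdn1 encodes midasin, a giant AAA-type ATPase that removes assembly factors from the maturing large ribosomal subunit. Usp34 encodes a deubiquitinase known for acting on axin in Wnt signalling. Huwe1 encodes a HECT-domain E3 ubiquitin ligase with many substrates, among them Mcl1 and p53.

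The promoters of the 3 genes are shown because forkhead proteins are known to read TGTTTAC and close variants of it. They come from RefSeq on GRCm38.p6, a build other than that of the peaks, so no peak can be placed on them and their coordinates cannot be set beside those of the windows. Each is the 250 bases before the annotated start, written 5′ to 3′ on the plus strand, with capitals marking TGTTT or its reverse complement AAACA. Each gene matched 1 entry, at chr4:32656869-32657118 for Mdn1, chr11:23306645-23306894 for Usp34 and chrX:151803032-151803281 for Huwe1.
Mdn1: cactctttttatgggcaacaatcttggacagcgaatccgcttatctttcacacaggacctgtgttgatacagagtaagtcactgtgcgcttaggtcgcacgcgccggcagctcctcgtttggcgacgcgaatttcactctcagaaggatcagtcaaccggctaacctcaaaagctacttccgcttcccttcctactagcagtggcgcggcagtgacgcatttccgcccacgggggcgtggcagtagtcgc
Usp34: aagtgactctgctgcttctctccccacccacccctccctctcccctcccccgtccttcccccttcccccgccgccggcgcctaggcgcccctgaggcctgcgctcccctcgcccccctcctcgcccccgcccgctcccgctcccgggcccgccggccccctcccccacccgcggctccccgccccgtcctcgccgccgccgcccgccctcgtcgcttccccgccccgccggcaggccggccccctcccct
Huwe1: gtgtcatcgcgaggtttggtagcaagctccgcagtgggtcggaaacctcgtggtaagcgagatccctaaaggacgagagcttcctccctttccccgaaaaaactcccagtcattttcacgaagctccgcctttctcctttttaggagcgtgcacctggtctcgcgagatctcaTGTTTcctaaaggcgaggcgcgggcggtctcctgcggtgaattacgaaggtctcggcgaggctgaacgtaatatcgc
TGTTTAC, or its reverse complement GTAAACA, was in 0 of the 3, against 3.17% of the 32851 promoters of the same length in the table. The shorter TGTTT or AAACA, which is part of the longer motif, was found once, starting 77 bases before the start of Huwe1. Of all promoters, 46.4% held it. The Usp34 promoter was 82.0% G and C, the Mdn1 promoter 55.2% and the Huwe1 promoter 55.6%, where the table's median was 52.4% (quartiles 45.2% and 61.2%). Each held more CG pairs than the table's upper quartile of 16, with 20 in Mdn1, 30 in Usp34 and 23 in Huwe1. A match, or its lack, describes only the letters in this stretch.

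In myotubes, peaks followed each other along each of the 3 windows and were sparser in the 50 kb on either side. The Mdn1 window, 121 kb long, held 1.20 peaks per kb (exact Poisson 95% interval 1.02 to 1.42). The Huwe1 window, 79.5 kb long, held 1.02 per kb (0.809 to 1.27), and the Usp34 window, 141 kb long, held 0.682 per kb (0.552 to 0.833). The windows were set by where peaks stood close together, so these densities are a description and carry no test. Each window was 1 run of peaks joined at 12 kb, from the start of its first peak to the end of its last. By this rule no gap between peaks inside a window could exceed 12 kb, and no outer peak could lie within 12 kb.

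The stretches before and after the windows differed, beyond the 12 kb that the joining rule leaves empty. Before the Mdn1 window 5 peaks lay within 50 kb, the nearest 13.8 kb away with a fold enrichment of 7.93. Before the Huwe1 window there were 2, the nearest 12.3 kb away with a fold of 6.45. Before the Usp34 window there was 1, at 25.5 kb with a fold of 6.22. After each window, the first 50 kb held 0 peaks. The next peak came 129 kb after the Mdn1 window, 60.9 kb after that of Usp34 and 84.5 kb after that of Huwe1. Their folds were 9.02, 21.27 and 6.61. Just inside the window, the first peak of Mdn1 had a fold of 7.74 and the last 8.59. At Usp34 the first had 4.11 and the last 8.59, and at Huwe1 the first had 7.27 and the last 10.96. In the GRCm38.p6 gene table the nearest protein-coding genes by start are Casp8ap2 and Lyrm2 around Mdn1, Xpo1 and Ahsa2 around Usp34, and Phf8 and Hsd17b10 around Huwe1. The edges of the windows are those of runs of peaks and not of genes. Whether the outer peaks lie in Mdn1, Usp34 or Huwe1, or in those neighbouring genes, was not examined.

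The windows held unequal shares of their chromosomes' peaks. On chromosome X, the Huwe1 window held 81 of 774 peaks (10.5%, Wilson 95% interval 8.50% to 12.8%) in 0.0494% of the distance from the first to the last peak. On chromosome 4, Mdn1 held 146 of 2938 (4.97%, 4.24% to 5.82%), and on chromosome 11, Usp34 held 96 of 3303 (2.91%, 2.39% to 3.54%). Outside the windows there were 0.00431 peaks per kb on chromosome X, 0.0184 on chromosome 4 and 0.0271 on chromosome 11. Huwe1 thus had a density between those of Usp34 and Mdn1 on the chromosome that had the fewest peaks per kb of the 3.

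Set beside other dense regions, Mdn1 was first by density and Usp34 nearer the middle. In the myotube list, 107 runs held 20 or more peaks, joined at 12 kb. By number of peaks Mdn1 had rank 3, Usp34 rank 5 and Huwe1 rank 6. By density Mdn1 had rank 1, Huwe1 rank 11 and Usp34 rank 40, where the median of the 107 was 0.583 per kb (quartiles 0.430 and 0.798). The 2 runs of most peaks, both on chromosome 2, had 198 peaks at 0.699 per kb and 181 peaks at 0.835 per kb. Peaks covered 38.8% of the bases of the Mdn1 window, 23.3% of Huwe1 and 15.9% of Usp34, against a median of 12.8% and a highest value of 51.5% over the 107 runs. By this share Mdn1 had rank 3, Huwe1 rank 18 and Usp34 rank 42. By median width the ranks were 8 for Mdn1, 28 for Huwe1 and 60 for Usp34, and by median fold 6 for Mdn1, 20 for Usp34 and 28 for Huwe1.

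**Figure D1:**
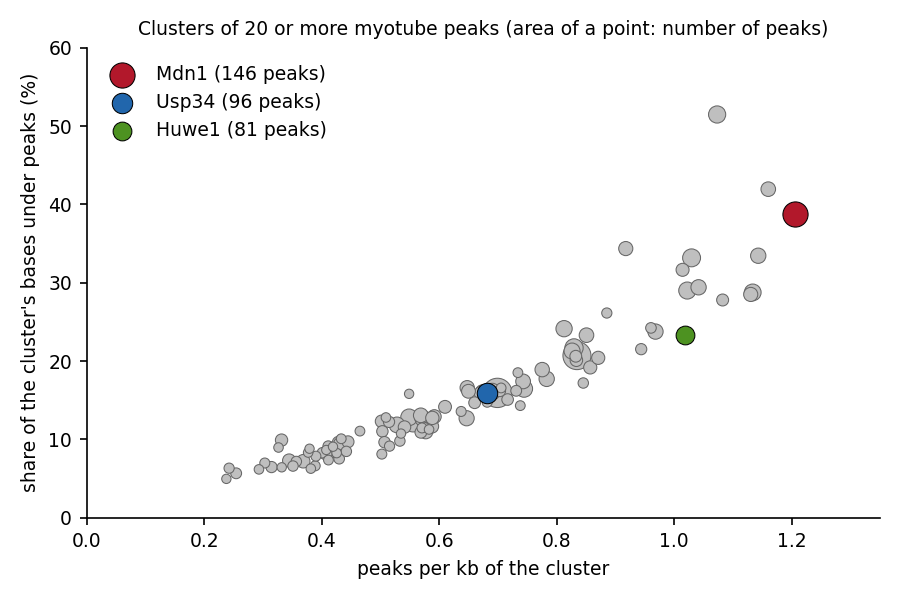
Share of bases under peaks (vertical axis, %) against peaks per kb (horizontal axis) for the 107 runs of 20 or more myotube peaks, with the area of a point proportional to its number of peaks. Mdn1 lies farthest to the right at 1.20 per kb, Huwe1 lies at 1.02 per kb, and Usp34 lies among the other runs at 0.682 per kb.

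The rank of Mdn1 depended on counting each deposited row as 1 peak. Neighbouring rows stood closer there, with 51 of 145 gaps between peak edges under 200 bp (35.2%). At Usp34 17 of 95 were (17.9%), at Huwe1 13 of 80 (16.2%), and in the whole list 3.92%. The list also holds gaps between isolated peaks, whereas the windows were chosen as dense runs with no gap over 12 kb. That choice itself favours a higher share than in the list, so this contrast carries no test. The shares in the other dense runs were not compared. The smallest gap in the list was 76 bp, which also occurred at Mdn1 and Huwe1. With rows under 200 bp apart joined, Mdn1 held 95 peaks (0.784 per kb), Huwe1 68 (0.856 per kb) and Usp34 79 (0.561 per kb). Among the same 107 spans Huwe1 then had rank 2, Mdn1 rank 10 and Usp34 rank 45. With peaks of −log10 q 5 or more alone, Mdn1 had rank 4, Huwe1 rank 15 and Usp34 rank 34, and with those of 10 or more the ranks were 5, 26 and 46. The share of bases covered kept the order Mdn1, Huwe1, Usp34 under all 6 filters and membership rules run.

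By deposited rows, neighbouring summits stood closest at Mdn1 and farthest apart at Usp34. At Mdn1 the median distance between neighbouring summits was 623 bp (95% interval from order statistics 546 to 710, n = 145 spacings). At Huwe1 it was 788.5 bp (613 to 849, n = 80), and at Usp34 967 bp (730 to 1179, n = 95). The intervals of Mdn1 and Usp34 did not overlap, and that of Huwe1 overlapped both. With rows under 200 bp apart joined the order turned, with 880 bp at Huwe1, 998 bp at Mdn1 and 1183.5 bp at Usp34. Spacings under 1 kb made up 77.9% at Mdn1 (Wilson interval 70.5% to 83.9%), 68.8% at Huwe1 (57.9% to 77.8%) and 51.6% at Usp34 (41.7% to 61.4%). The longest stretch without a summit at Mdn1 was 6619 bp and came right after its first peak. At Usp34 it was 9173 bp, from 125 to 134 kb into the window, and at Huwe1 4315 bp, from 73.5 to 77.8 kb. The next longest were 4939 bp at Mdn1, 8443 bp at Usp34 and 3359 bp at Huwe1. Usp34 had 5 spacings of over 5 kb, against 1 at Mdn1 and 0 at Huwe1.

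Within each window the middle held the most peaks. Each window ends where the next peak lies over 12 kb away, so the choice of windows may itself favour sparser ends. The segment counts and their intervals are therefore a description and carry no test. Segments were not counted again with nearby rows joined. Divided into 3 segments of equal length, in order of coordinates, Mdn1 had 40, 63 and 43 peaks, or 0.990, 1.56 and 1.06 per kb. Huwe1 had 20, 34 and 27, or 0.755, 1.28 and 1.02 per kb. Usp34 had 28, 54 and 14, or 0.597, 1.15 and 0.298 per kb. The Poisson intervals of the 3 segments overlapped at Mdn1 and at Huwe1. At Usp34 the interval of the middle segment began at 0.864 per kb, above those of the first (0.396 to 0.862) and the last (0.163 to 0.501). The middle segment of Usp34 overlapped in its interval with those of Mdn1 (from 1.20 per kb) and Huwe1 (from 0.889 per kb). Its last segment lay below the last segments of Mdn1 (0.770 to 1.43) and Huwe1 (0.672 to 1.48). Within 10 kb, the most summits were 20 at Mdn1, from 64.0 kb into the window, 15 at Usp34, from 40.8 kb, and 15 at Huwe1, from 25.7 kb.

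**Figure D2:**
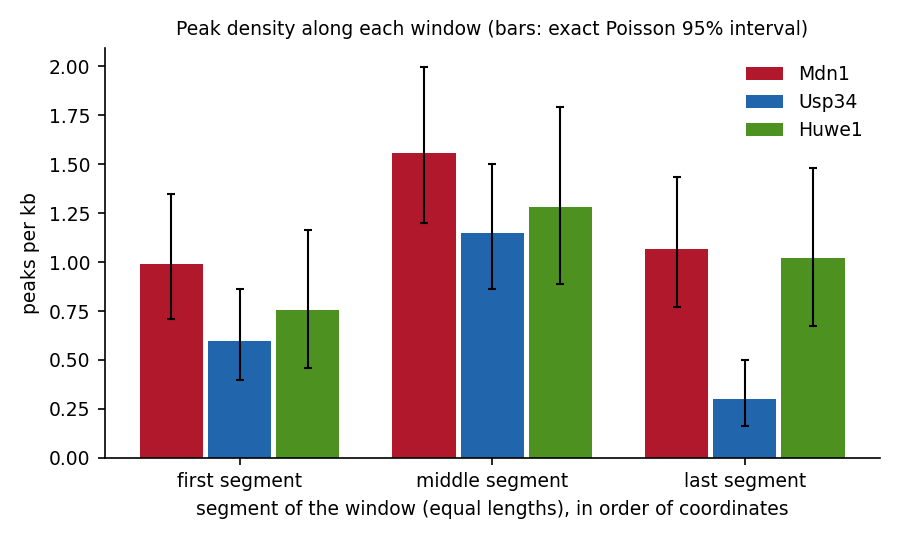
Peaks per kb (vertical axis) in the first, middle and last segment of each window (horizontal axis), with exact Poisson 95% intervals. The middle segment is the highest bar for each gene, and the last segment of Usp34 is the lowest bar, at 0.298 per kb.

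Peak width was largest at Mdn1, by median, and the interval of Mdn1 overlapped that of Huwe1 but not that of Usp34. The median width was 263.5 bp at Mdn1 (225 to 292, quartiles 168.5 and 373), 209 bp at Huwe1 (186 to 235, quartiles 165 and 267) and 189.5 bp at Usp34 (166 to 218, quartiles 134.75 and 270). Outside the 3 windows it was 186 bp (185 to 187, n = 45134). The interval of Usp34 held that value, the lower end of the interval of Huwe1 met it, and that of Mdn1 lay above it. At 500 bp or wider there were 22 of 146 peaks at Mdn1 (15.1%, Wilson interval 10.2% to 21.8%), 5 of 96 at Usp34 (5.21%, 2.24% to 11.6%) and 1 of 81 at Huwe1 (1.23%, 0.218% to 6.67%), where the background over the list was 2.64%. Narrower than 130 bp, near the smallest width in the list of 122 bp, were 15 peaks at Mdn1 (10.3%, 6.33% to 16.3%), 19 at Usp34 (19.8%, 13.1% to 28.9%) and 8 at Huwe1 (9.88%, 5.09% to 18.3%), against a background of 16.8%. The intervals of Usp34 and Huwe1 include that share, and that of Mdn1 lies below it.

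The widest peak of Mdn1, on chromosome 4 from 32798843 to 32800499, spanned 1657 bp, 55.3 kb into the window, with a fold of 12.09. As wide or wider was 0.0154% of the list. At Usp34 the widest, on chromosome 11 from 23304532 to 23305479, spanned 948 bp with a fold of 11.10, and 0.121% of the list was as wide. At Huwe1 the widest, on chromosome X from 148308989 to 148309504, spanned 516 bp with a fold of 11.24, and 2.33% of the list was as wide. At each gene the widest peak had a fold above the median of its window, but was not among the 3 of highest fold.

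Fold enrichment, the authors' ratio of the summit to its local background, was modest at all 3 genes. The median was 9.02 at Mdn1 (8.59 to 9.25, range 4.14 to 17.18), 8.38 at Usp34 (7.74 to 8.98, range 3.63 to 15.54) and 8.22 at Huwe1 (7.93 to 8.59, range 4.25 to 13.22). Outside the windows it was 8.59 (8.59 to 8.70), a value that the intervals of all 3 genes include, at their edge for Mdn1 and Huwe1. The windows differed from the list in the upper tail. A fold of 10 or more was reached by 52 peaks at Mdn1 (35.6%, Wilson interval 28.3% to 43.7%), 22 at Usp34 (22.9%, 15.6% to 32.3%) and 15 at Huwe1 (18.5%, 11.6% to 28.3%). The background for this fold was 35.4%, so the share at Mdn1 was that of the list and the intervals of Usp34 and Huwe1 lay below it. By −log10 q-value, 117 peaks at Mdn1 (80.1%), 68 at Usp34 (70.8%) and 56 at Huwe1 (69.1%) had 5 or more, against a background of 82.6%. At 10 or more there were 40 at Mdn1 (27.4%), 12 at Usp34 (12.5%) and 11 at Huwe1 (13.6%), against 41.4%. A fold of 20 was reached by 0 of the 323 peaks (a count of 0 allows a share of up to 0.929%) and by 5.92% of the peaks outside.

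The 3 peaks of highest fold at Mdn1 were also wide. They lay on chromosome 4 from 32782877 to 32783534 (fold 17.18, 658 bp), from 32801105 to 32801676 (fold 16.52, 572 bp) and from 32813189 to 32813873 (fold 15.20, 685 bp). At Usp34 they lay on chromosome 11 from 23336038 to 23336369 (fold 15.54, 332 bp), from 23321302 to 23321496 (fold 13.97, 195 bp) and from 23332574 to 23332854 (fold 13.41, 281 bp). At Huwe1 they lay on chromosome X from 148346537 to 148346817 (fold 13.22, 281 bp), from 148335643 to 148335797 (fold 12.56, 155 bp) and from 148310242 to 148310719 (fold 12.25, 478 bp). All 3 of Usp34 lay between 57.1 and 72.0 kb into the window. The highest of each gene was exceeded by 3990, 5259 and 7942 peaks elsewhere in the list.

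**Figure D3:**
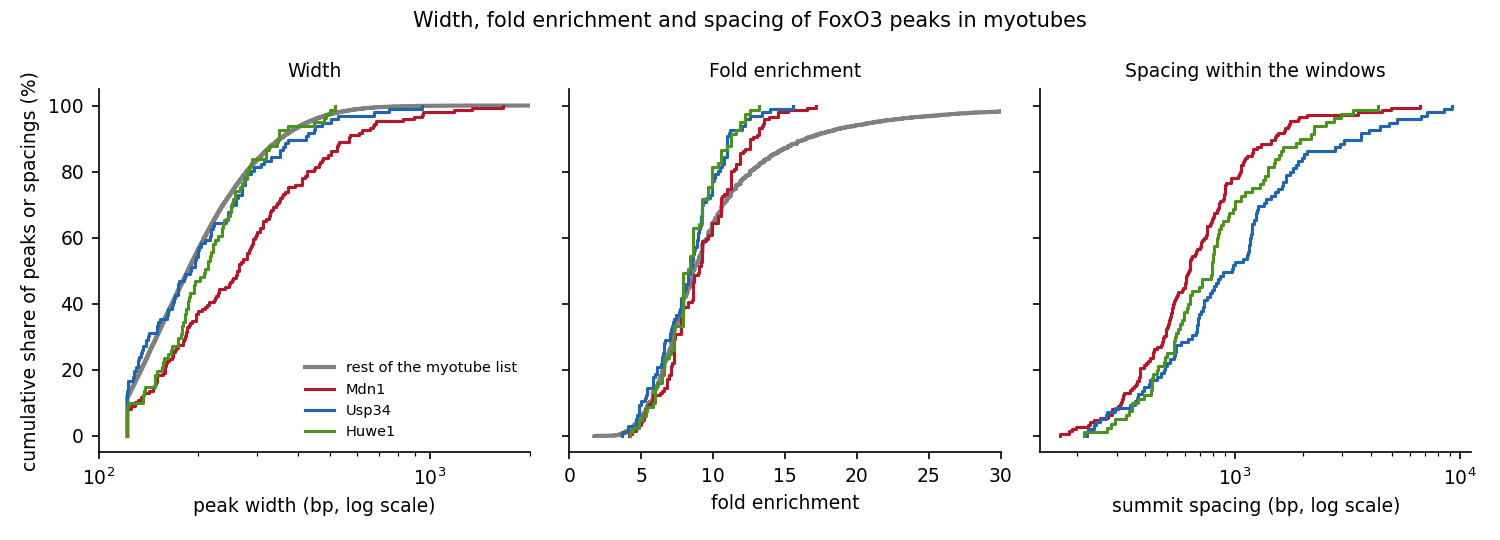
Cumulative share (vertical axis, %) of peaks by width (bp, log scale) and fold enrichment (linear ratio), and of summit spacings (bp, log scale), for each window and, in grey, the rest of the myotube list. Above 200 bp the Mdn1 curve of width lies to the right of the others, with a median of 263.5 bp against 186 bp in grey, and all 3 curves of fold end by 17.18 while the grey curve goes on.

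Behind these folds stood few reads. The list gives no counts, so the pileup at each summit was recovered as the whole number of reads that fits the deposited fold and p-value under a Poisson model. For each of the 323 peaks 1 whole number fitted. The median was 16 reads at Mdn1 (15 to 17, range 9 to 30), 15 at Usp34 (14 to 16, range 8 to 26) and 13 at Huwe1 (12 to 14, range 9 to 20), against 18 outside. Background differed between the windows. The most frequent background in the list, 1.51 reads, stood behind 54 of 81 peaks at Huwe1 (66.7%), 69 of 146 at Mdn1 (47.3%) and 11 of 96 at Usp34 (11.5%), where the share over the list was 20.5%. The median background was 1.51 reads at Huwe1, 1.55 at Mdn1 and 1.64 at Usp34, and 2.07 outside. The chromosomes differed as well. On the rest of chromosome X the median pileup was 15 reads and the median background 1.55. These medians were 18 and 1.93 on the rest of chromosome 4, and 18 and 2.07 on the rest of chromosome 11. Low background at Huwe1 was thus shared with other peaks of chromosome X. Folds therefore come in steps, and 13 reads over the most frequent background give the fold of 8.59 seen at several peaks above. Among peaks at that background alone, the median fold was 9.91 at Mdn1, 9.25 at Usp34 and 8.59 at Huwe1.

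Width was also compared at like pileup. Among peaks of 12 to 17 reads, the quartiles of the 323, the median width was 230 bp at Mdn1 (183 to 266, n = 86), 222 bp at Huwe1 (187 to 250, n = 51) and 182 bp at Usp34 (151 to 246, n = 61). Outside the windows it was 156 bp (155 to 157, n = 17274). The intervals of Mdn1 and Huwe1 lay above that of the rest of the list, and that of Usp34 included it. Pileup was matched here but background was not. At these pileups the median fold was 9 at Mdn1, 8.59 at Huwe1 and 8.52 at Usp34, against 7.93 outside. The part of background in the widths was not tested. The 2 runs of most peaks on chromosome 2 had 197 bp (171 to 223) and 200 bp (176 to 212) at the same pileups. Their intervals too lay above that of the rest of the list. The intervals of Mdn1 and Huwe1 overlapped here, as they did over all peaks. Across peaks, width and pileup had a Spearman rho of 0.54 at Mdn1, 0.31 at Usp34, 0.31 at Huwe1 and 0.51 outside, over peaks of 1 library.

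**Figure D4:**
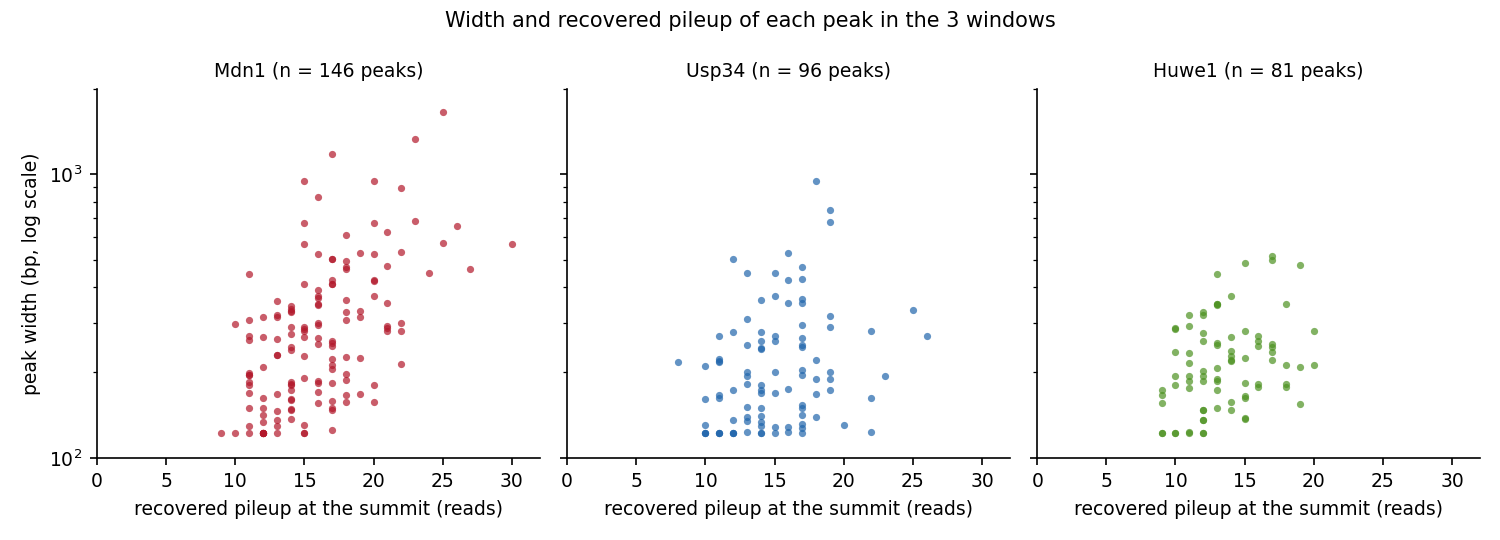
Width (vertical axis, bp, log scale) against recovered pileup at the summit (horizontal axis, reads) for every peak of the 3 windows. Mdn1 reaches 30 reads and 1657 bp, whereas Huwe1 ends at 20 reads and 516 bp.

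The myoblast list held no peak in any of the windows. The count was 0 at each gene, out of 501 myoblast peaks in all, and a count of 0 allows up to 3 peaks per window. Of the 30 myoblast peaks on chromosome 4, the nearest to Mdn1 lay 84.7 kb before the window, from 32659157 to 32659260, with a fold of 15.77 and 7 reads. Of the 53 on chromosome 11, the nearest to Usp34 lay 29.9 kb before the window, from 23234381 to 23234456, with a fold of 22.23 and 10 reads. Of the 11 on chromosome X, the nearest to Huwe1 lay 390 kb before the window, from 147897301 to 147897376, with a fold of 22.53 and 10 reads. None of these overlapped a myotube peak (0 at each), and the nearest myotube summit was 1718 bp, 4375 bp and 57640 bp away. Distances are to the windows, and whether these myoblast peaks lie in the genes was not examined. Over the whole myotube list, 0.224% of peaks overlapped a myoblast peak.

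The 2 lists also differed in the lowest folds they held. At its most frequent background of 0.44 reads, the myoblast list held no fold under 13.52, and the myotube list went down to 5.29 at its own. A fold of 13.52 or more was reached in myotubes by 8 of 146 peaks at Mdn1, 2 of 96 at Usp34 and 0 of 81 at Huwe1 (which allows up to 3.70%), where the background over the list was 17.0%. At the other 313 peaks of the windows, the myotube fold was below 13.52. A fold is a ratio to the background of its own library. A myotube fold therefore does not give the fold that the same site would have in myoblasts. The lists were called separately, and the part of depth in the absence of myoblast peaks was not tested.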

How the data were processed

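ChIP-seq for FoxO3 was measured in 2 samples, 1 myoblast and 1 myotube library. The submitters' processing notes name MACS2 2.1.0 and the build mm9. Which aligner, control library and calling threshold the authors used is not given in the sources at hand. Per the file headers, each deposited list has the narrowPeak layout. Its fold enrichment is a linear ratio made by the authors' caller. The authors' caller also gave the −log10 of a p-value and of a q-value, the position of the summit, and a score. The deposited score, rounded down, is 10 times the −log10 q. Total depth is unknown.

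The members and comparisons were chosen with earlier results of these data known. Peaks were counted by summit, with coordinates from 1. Peaks named are, per window, the 3 of highest fold, the widest, the first and last, the 2 longest gaps, the nearest outer peaks and the nearest myoblast peak. Pileups were recovered as the whole number nearest to the fold and p-value, within 0.02 on the log10 scale beyond rounding, for 45452 of 45457 myotube and 501 of 501 myoblast peaks. On simulated pairs 500 of 500 were recovered with the folds of each list. Those pairs were made with the same Poisson formula that the recovery inverts, so they check the inversion only. Whether the recovered numbers are the real read counts was not tested. Intervals are 95%: exact Poisson for counts, Wilson for shares, binomial order statistics for medians. The limits given for a count of 0 are not from these intervals. They use an approximate 1-sided 95% limit of 3, divided by the number of peaks for a share. Comparison with exons was planned and not made, for want of an mm9 annotation. Python 3.11.15, numpy 2.4.6, pandas 2.3.3, scipy 1.17.1 and matplotlib 3.10.9 were used.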

Additional observations from a re-analysis of the deposited data

How the results depend on the processing

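Each value rests on 1 library, and peaks of 8 to 30 reads limit how finely folds and widths can be told apart. Of 162 alternative values, 107 stayed within 1.5 times (counts and ranks) or the interval of the reported value and 55 moved. A stricter threshold removes weak peaks by construction, and the cause was not tested otherwise. Values are given for Mdn1, Usp34 and Huwe1 in that order where 3 stand together.

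With −log10 q of 5 or more, density was 0.966, 0.483 and 0.705 per kb and median fold 9.67, 9.135 and 9.25. The share at fold 10 or more was 44.4% at Mdn1 and 32.4% at Usp34, the covered share 11.8% at Usp34 and 16.8% at Huwe1, and spacing 923 bp at Huwe1. At 10 or more, counts were 40, 12 and 11, density 0.330, 0.0852 and 0.138 per kb, width 422, 235 and 236 bp, fold 12.14, 12.125 and 11.90, and spacing 1582, 4763 and 3046 bp. The covered shares were then 16.1%, 2.71% and 3.88%, and the shares at fold 10 or more 95%, 100% and 90.9%. With rows under 200 bp apart joined, Mdn1 had 95 peaks, 0.784 per kb, a width of 357 bp, a fold of 9.51, a spacing of 998 bp and 45.3% at fold 10 or more. Usp34 then had a spacing of 1183.5 bp, and Huwe1 a width of 236.5 bp and a spacing of 880 bp, so that Huwe1 and not Mdn1 had the closest summits and the highest density. Windows widened by 50 kb on each side gave 0.683, 0.403 and 0.462 per kb, and held 1 myoblast peak at Usp34. Widened by 500 kb they held 2, 1 and 1 myoblast peaks. Peaks at the most frequent background only, chosen after seeing the data as were the ranks by setting and the comparison at like pileup, gave a fold of 9.91 at Mdn1 and 9.25 at Usp34. Leaving out the smallest width or raised background, membership by overlap, density between the first and last summit and a pileup tolerance of 0.005 moved no value beyond these bounds. No paired analysis was possible because there is 1 library per condition.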

Other observations

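By median, summits lay near the middle of their peaks at all 3 genes, but single summits were spread widely. The median position of the summit was 46.7% of the way along the peak at Mdn1, 45.8% at Usp34 and 46.7% at Huwe1, and 48.5% in the rest of the myotube list. The spread was wider at Mdn1 (quartiles 30.3% and 67.0%) and Usp34 (28.5% and 64.0%) than at Huwe1 (34.1% and 59.8%) or in the rest of the list (37.0% and 59.8%).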
